A study of Homo sapiens with 6 samples.

Results

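The genes described here are the 36 genes of antigen presentation that were listed for the major histocompatibility complex (MHC) and its supply chain, found by symbol in a count table of 36517 genes. They were sorted by role into 5 class I heavy chains with the light chain B2M, 6 class II chains, 4 class II accessory genes, 2 transactivators, 4 genes of peptide transport and loading, 3 immunoproteasome subunits, 2 proteasome activator subunits, 2 trimming peptidases, 3 chaperones and 4 ligands of the NKG2D receptor. All 36 had a row in the table, 30 passed the filter on low counts and were tested, and 6 were not (HLA-DRA, HLA-DPA1, HLA-DPB1, HLA-DQA1, HLA-DOB and CD74). The cells were MDA-MB-453, an established human breast cancer line of luminal type, and their mRNA was sequenced. The 3 control libraries came from cells given a lentivirus with the negative-control hairpin shNC. The 3 shtRF libraries came from cells given a lentivirus with the hairpin shtRF-1-Ser. All were labelled day 3, and the labels do not say from when the days are counted. The authors describe the sequenced cells as stable knockdown cells and their controls. The hairpin was directed at tRF-1-Ser, a small RNA cut from the 3′ end of a serine tRNA precursor, and the comparison asks what its knockdown changes in the transcriptome. Both groups carried a lentivirus and no library of untransduced cells was analysed. Each group used a single hairpin in a single line. The target is a small RNA and has no row in the count table, so its knockdown was not checked here. Whether the replicates were separate transductions is not stated in the labels, and the p-values then measure only the spread between these libraries, which may be technical.

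Class I molecules present peptides made in the cytosol to CD8+ T cells on nearly every cell, whereas class II molecules present peptides from the endosomes to CD4+ T cells and are mostly made by professional antigen-presenting cells. Peptides for class I are cut by the proteasome, whose catalytic subunits can be exchanged for the inducible immunoproteasome subunits, pumped into the endoplasmic reticulum by TAP1 and TAP2 and fitted to the heavy chain with the help of chaperones. NLRC5 is the transactivator of class I genes and CIITA that of class II genes, and both act through a complex of RFX, CREB and NF-Y proteins on the promoter. Interferon-gamma raises most of these genes, in part through IRF1. Tumour cells that lose class I can escape T cells, and the stress ligands MICA, MICB and the ULBP proteins mark cells for natural killer cells.

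Totals ran from 63541413 to 78917459 counts per library, a 1.24-fold range. All 7 luminal markers were abundant in every library, among them KRT19 at a mean of 447 RPKM in control and 461 RPKM in shtRF. Of 12 leukocyte markers, 11 had at most 15 counts in any library, and PTPRC and CD3E reached at most 5 and 2 counts. The exception was CD68, at 315 to 566 counts, with 85.8% of its exonic bases lying in exons of neighbouring genes. The summed level of the 12 markers was 4.71 to 5.53 CPM (counts scaled to a library total of 1000000) in control and 5.91 to 8.36 CPM in shtRF. Most counts in this sum were those of CD68, with 315, 388 and 331 in control and 566, 385 and 450 in shtRF. CD68 was higher in shtRF (log2 fold change 0.57, adjusted p = 0.00143), and the other 11 markers had too few counts to be tested. The part of these markers in the results was not tested. RPKM here is the scaled CPM divided by the exonic length in kilobases, and it is the scale of every level compared between genes. The log2 fold changes are shtRF against control, so a negative value is lower in shtRF, and each adjusted p comes from the edgeR quasi-likelihood test over all 19628 tested genes. Bulk RNA cannot tell fewer cells expressing a gene from less RNA per cell.

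The promoters of 6 genes that the results below turn on are shown first, because class I and class II genes are read through short shared elements. Each sequence is the 160 bases from 200 to 41 bases before the RefSeq start, written in the direction of the gene, from the RefSeq table of GRCh38.p14. Capitals mark matches on either strand of GAAANNGAA (the core of the interferon-stimulated response element), TGACG (the X2-box or core CRE site) and CCAAT (the Y box), and overlapping matches run together. The windows lie at chr6:31357220-31357379 on the minus strand for HLA-B, chr6:29723234-29723393 on the plus strand for HLA-F, chr15:44711317-44711476 on the plus strand for B2M, chr6:32853745-32853904 on the minus strand for TAP1, chr6:32589889-32590048 on the minus strand for HLA-DRB1 and chr6:32666698-32666857 on the minus strand for HLA-DQB1.
HLA-B: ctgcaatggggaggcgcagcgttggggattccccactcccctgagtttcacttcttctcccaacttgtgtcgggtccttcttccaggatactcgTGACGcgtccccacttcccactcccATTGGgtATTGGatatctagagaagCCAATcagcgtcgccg
HLA-F: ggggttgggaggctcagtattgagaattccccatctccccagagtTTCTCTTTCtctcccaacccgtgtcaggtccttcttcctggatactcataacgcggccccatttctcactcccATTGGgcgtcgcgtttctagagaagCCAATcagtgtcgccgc
B2M: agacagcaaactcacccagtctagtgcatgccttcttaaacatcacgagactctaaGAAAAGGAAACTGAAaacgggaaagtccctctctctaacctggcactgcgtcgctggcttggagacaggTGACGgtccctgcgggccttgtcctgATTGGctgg
TAP1: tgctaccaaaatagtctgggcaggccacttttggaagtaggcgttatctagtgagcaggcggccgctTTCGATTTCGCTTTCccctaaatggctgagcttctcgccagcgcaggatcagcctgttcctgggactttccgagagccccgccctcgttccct
HLA-DRB1: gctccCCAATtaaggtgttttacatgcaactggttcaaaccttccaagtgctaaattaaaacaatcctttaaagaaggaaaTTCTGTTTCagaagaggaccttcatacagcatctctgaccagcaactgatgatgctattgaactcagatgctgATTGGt
HLA-DQB1: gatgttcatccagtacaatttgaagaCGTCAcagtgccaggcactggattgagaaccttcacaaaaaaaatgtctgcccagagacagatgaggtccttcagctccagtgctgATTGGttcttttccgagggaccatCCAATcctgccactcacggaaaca

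The first 4 of these genes were lower and the last 2 higher in shtRF, and capitals occur in both sets. Promoters of 31 of the 36 genes were in the table, with none for HLA-E, HLA-DRA, CIITA, NLRC5 and PDIA3. Over the full window in that table, 250 bases before to 50 after the start, CCAAT was present in 20 of the 31 (64.5%), against 34.6% of all 35116 promoters. GAAANNGAA was present in 12 (38.7%), against 8.11%, and TGACG also in 12 (38.7%), against 24.6%. TTCNNNGAA, the gamma-activated site, was present in 1 (HLA-DQA1), against 7.66% of all promoters. Among the 10 promoters of genes that were lower in shtRF, 8 held CCAAT, 6 TGACG and 5 GAAANNGAA. The 7 promoters of genes that were higher include that of HLA-DRB1, which passed the filter on low counts only through the shtRF libraries. Of these 7, 5 held CCAAT, 3 TGACG and 3 GAAANNGAA. These matches describe the letters in the window and are not binding sites.

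Over the 30 tested genes, 12 were downregulated in shtRF (40%) and 7 were upregulated (23.3%), while 11 did not pass the adjusted p threshold of 0.05. HLA-DRB1, which is among those counted as upregulated, passed the filter on low counts only through the shtRF libraries, so its direction was fixed by the filter. Among all tested genes, 18.9% were lower and 20.6% were higher, so the share of higher genes lay near that of all genes and the share of lower genes lay above it. The 3 control and 3 shtRF libraries did not overlap in CPM for 19 of the 30 genes (63.3%), against 48.7% of all tested genes. The median log2 fold change was -0.06 over the 30 genes and -0.0025 over all tested genes. Single genes ranged from -1.62 for HLA-F to 2.27 for HLA-DRB1. The roles differed in direction: 5 of the 6 class I chains were lower and none higher, HLA-DQB1, the 1 class II chain whose test did not depend on its level in shtRF, was higher, and 2 of the 3 immunoproteasome subunits were lower.

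**Figure D1:**
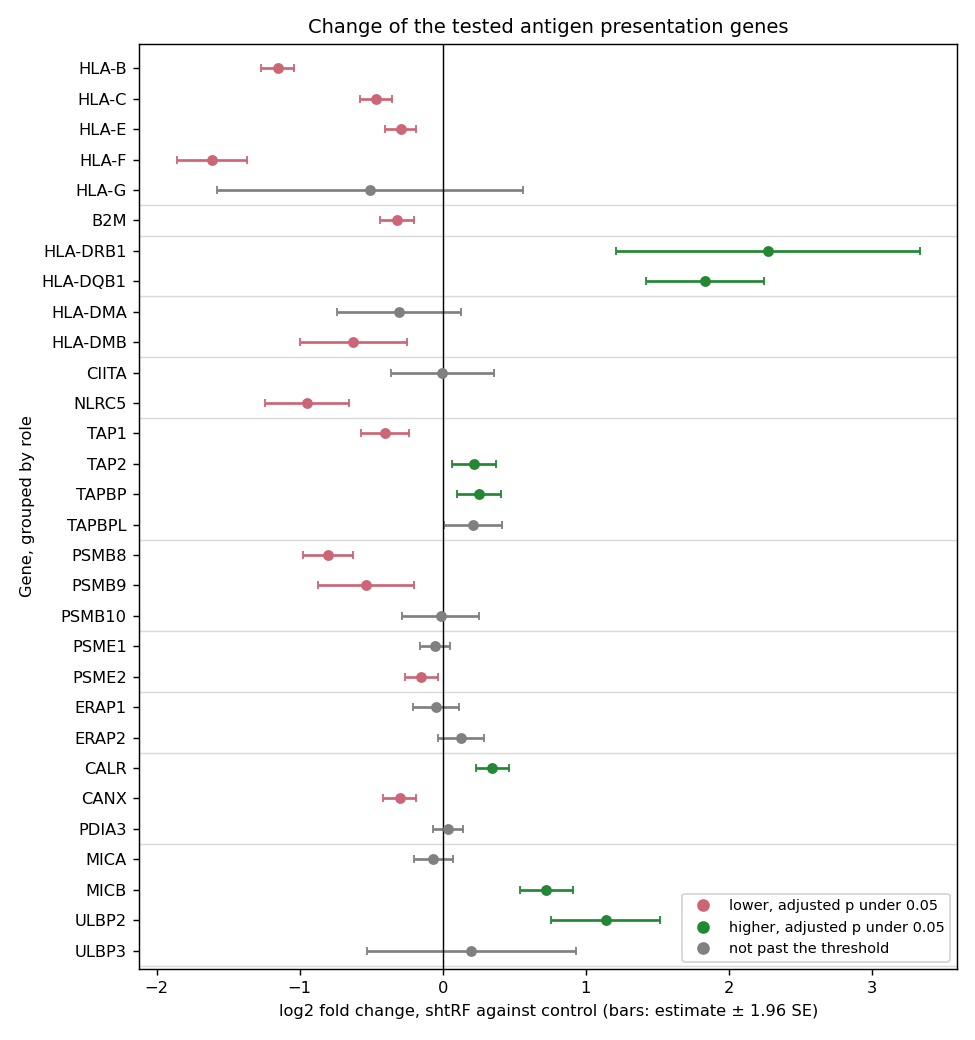
Log2 fold change of each of the 30 tested genes, shtRF against control, with bars for the approximate 95% interval, grouped by role from class I chains at the top to NKG2D ligands at the bottom. The class I chains lie left of 0, HLA-DRB1 and HLA-DQB1 lie farthest to the right at 2.27 and 1.83, and the bars of HLA-DRB1, HLA-G and ULBP3 are the widest.

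Class I heavy chains fell together, with 4 of 5 lower in shtRF. HLA-B (chromosome 6, 31353872 to 31357188, minus strand), one of the classical heavy chains that present peptides to CD8+ T cells, was measured at 84.4, 89.6 and 86.9 RPKM in the control libraries and 35.9, 41.8 and 39.7 RPKM in the shtRF libraries. The groups did not overlap, and the mean went from 87.0 ± 2.63 to 39.1 ± 2.95 RPKM (SD, n = 3 each). HLA-B was thus 2.22-fold lower (log2 fold change -1.15, SE 0.0587, adjusted p = 9.59e-13). A gene on the opposite strand, XXbac-BPG248L24.12, shares 18% of the exonic bases of HLA-B and had the same log2 fold change of -1.15. Reads over the shared bases cannot be told apart between the pair.

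HLA-C (chromosome 6, 31268749 to 31272130, minus strand), the most abundant heavy chain of the list, had 271, 288 and 293 RPKM in control and 193, 210 and 214 RPKM in shtRF. All 3 shtRF libraries lay below the control libraries, and the fall was smaller than that of HLA-B (1.38-fold lower, log2 fold change -0.47, SE 0.0566, adjusted p = 7.72e-07). The ratio of HLA-C to HLA-B RPKM was accordingly 3.22, 3.21 and 3.37 in control and 5.37, 5.04 and 5.39 in shtRF. HLA-B made up 21.3 ± 0.409% of the summed RPKM of the 5 heavy chains in control and 14.3 ± 0.519% in shtRF, and HLA-C 69.7 ± 0.658% and 75.3 ± 0.144%. The summed RPKM of the 5 chains was 392, 414 and 416 in control and 256, 280 and 284 in shtRF, a fall of the mean by 33%.

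HLA-E, a nonclassical heavy chain that is recognised by the NKG2A receptor of natural killer cells, had 33.8, 33.6 and 34.0 RPKM in control and 26.1, 27.2 and 29.4 RPKM in shtRF. Its change was the least of the heavy chains that passed the test (1.23-fold lower, log2 fold change -0.29, SE 0.0549, adjusted p = 1.77e-04). HLA-F (chromosome 6, 29722775 to 29738528, plus strand), a nonclassical chain that is mostly kept inside the cell, had 2.71, 2.88 and 2.06 RPKM in control and 0.879, 0.741 and 0.873 RPKM in shtRF. This was the largest fall of the 30 tested genes in fold terms (3.06-fold lower, log2 fold change -1.62, SE 0.125, adjusted p = 8.69e-10). Exons of other genes cover 28.5% of its exonic bases, chiefly the pseudogene HCG4P11 on the opposite strand, whose log2 fold change was -1.51. HLA-G, a nonclassical chain best known from the placenta, had 15, 10 and 14 counts in control and 8, 7 and 10 counts in shtRF, too few to tell a change from none (log2 fold change -0.51, 95% interval -1.58 to 0.56, adjusted p = 0.503), and 25.8% of its exonic bases are shared. HLA genes resemble each other closely and differ between people, so reads of a cell line's own alleles can be misplaced among them.

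B2M (chromosome 15, 44711477 to 44718877, plus strand), the light chain without which no class I molecule reaches the surface, had 25.5, 30.9 and 27.2 RPKM in control and 22, 22.6 and 22.5 RPKM in shtRF. All shtRF libraries were below all control libraries, by 1.25-fold (log2 fold change -0.32, SE 0.0617, adjusted p = 2.59e-04). The exons counted for B2M add up to 6089 bases over all its annotated transcripts, and its RPKM depends on that sum, so it is not set against the heavy chains as a stoichiometry.

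**Figure D2:**
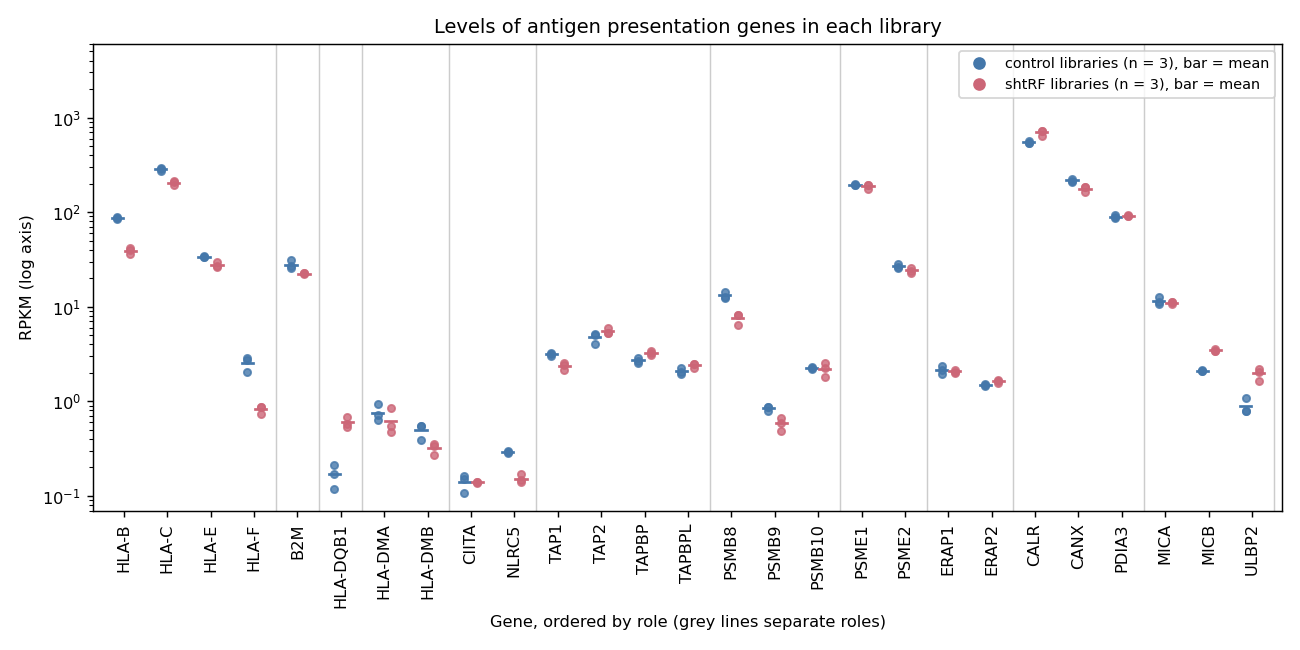
RPKM on a log axis in each of the 3 control (blue) and 3 shtRF (red) libraries for the 27 genes with a mean of at least 1 CPM, ordered by role, with a short bar at each group mean. Levels span from CIITA near the bottom to CALR at the top, and the 2 colours separate for HLA-B, HLA-F, HLA-DQB1, NLRC5, PSMB8 and MICB.

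Class II chains were near the limit of detection in this epithelial line, and of the 6 chains HLA-DQB1 gave the 1 usable test and rose. HLA-DQB1 (chromosome 6, 32659467 to 32668383, minus strand), the beta chain of HLA-DQ, had 55, 44 and 84 counts in control and 237, 181 and 177 counts in shtRF. On the RPKM scale this was 0.172, 0.119 and 0.215 in control and 0.688, 0.537 and 0.582 in shtRF, so the lowest shtRF library lay above the highest control library. The rise was 3.56-fold (log2 fold change 1.83, SE 0.212, adjusted p = 4.01e-07). HLA-DRB1 (chromosome 6, 32552990 to 32589848, minus strand), the beta chain of HLA-DR, had 4, 8 and 6 counts in control and 35, 14 and 31 counts in shtRF. It passed the filter on low counts only through the shtRF libraries, and a gene that enters in this way had to differ. Its log2 fold change was 2.27 (SE 0.544, 95% interval 1.21 to 3.34, adjusted p = 0.00193). Reads of near-identical DRB genes and pseudogenes beside it could be split among them.

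The partner chains did not show matching counts. HLA-DQA1, the alpha chain that pairs with HLA-DQB1, had 4, 6 and 0 counts in control and 4, 12 and 3 counts in shtRF. HLA-DRA, the alpha chain that pairs with HLA-DRB1, had 0 counts in every control library and 0, 0 and 2 counts in shtRF. HLA-DPA1 had 0, 2 and 0 counts in control and 0, 0 and 5 in shtRF, and HLA-DPB1 had 0, 4 and 0 counts in control and 2, 4 and 0 in shtRF. None of these 4 chains had enough counts for the test, and any difference in them was not detectable at this depth. Counts from 1 to 4 were mostly even (74.2% to 77.1% per library), whereas large counts from 1000 upwards were even in 49.7% to 50.7% of cases, so a small count may stand for fewer read pairs than it says. The summed RPKM of the 6 class II chains was 0.228, 0.235 and 0.272 in control and 1.09, 0.74 and 1.01 in shtRF, still far below the 256 to 416 RPKM of the class I heavy chains.

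Accessory genes of class II did not rise with HLA-DQB1. HLA-DMB, part of the HLA-DM dimer that exchanges peptides on class II molecules, had 0.548, 0.393 and 0.544 RPKM in control and 0.269, 0.354 and 0.340 RPKM in shtRF. It was 1.54-fold lower (log2 fold change -0.63, SE 0.193, adjusted p = 0.0128), but the call was lost without control replicate 1 (adjusted p = 0.0534), control replicate 3 (0.052) or shtRF replicate 1 (0.0626), within a range of 0.00462 to 0.0626 over 15 alternatives. HLA-DMA, the other chain of HLA-DM, had 0.716, 0.935 and 0.633 RPKM in control and 0.472, 0.546 and 0.84 RPKM in shtRF, with overlapping groups (log2 fold change -0.30, 95% interval -0.738 to 0.131, adjusted p = 0.303). HLA-DOB, which tempers HLA-DM, had 14, 10 and 4 counts in control and 2, 5 and 6 counts in shtRF, and 32.2% of its exonic bases are shared. CD74, the invariant chain that occupies the class II groove during assembly, had 9, 0 and 2 counts in control and 8, 5 and 9 counts in shtRF. CD74 is abundant in cells that make class II molecules, and here it was at the edge of detection in both groups.

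**Figure D3:**
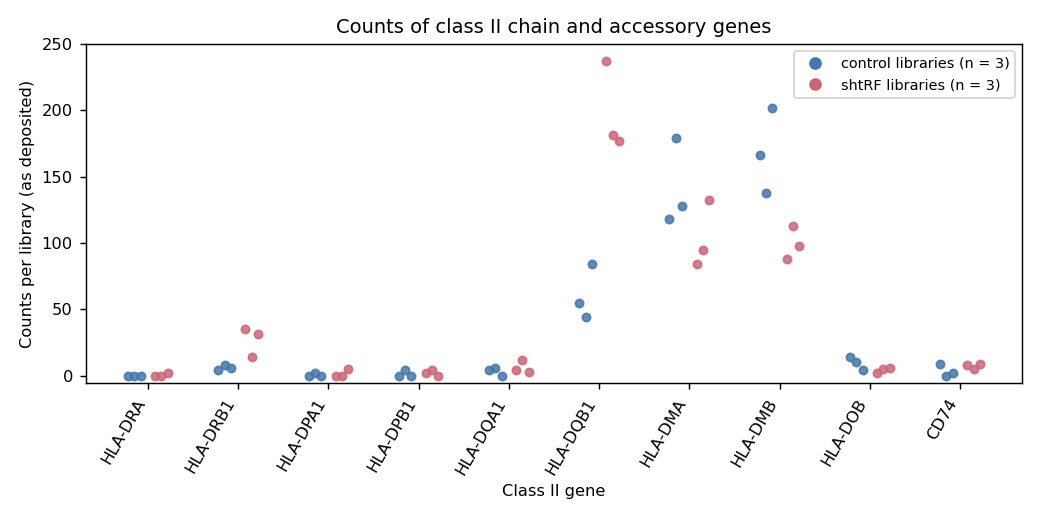
Counts as deposited in each control (blue) and shtRF (red) library for the 6 class II chains and 4 accessory genes, on a linear axis. Among the chains, HLA-DQB1 stands out at 177 to 237 counts in shtRF against 44 to 84 in control. HLA-DRB1 reaches 35 at most, and the other 4 chains and CD74 lie at 12 counts or fewer. The accessory genes HLA-DMA (118 to 179 in control, 84 to 132 in shtRF) and HLA-DMB (138 to 202 and 88 to 113) lie above HLA-DQB1 in control.

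The transactivators of the 2 classes differed. NLRC5, the transactivator of class I genes, had 0.302, 0.294 and 0.287 RPKM in control and 0.147, 0.141 and 0.169 RPKM in shtRF, from 243, 275 and 284 counts and 128, 120 and 130 counts. It was 1.93-fold lower, with no overlap between the groups (log2 fold change -0.95, SE 0.15, adjusted p = 2.56e-05). CIITA, the transactivator of class II genes, had 0.149, 0.107 and 0.162 RPKM in control and 0.138, 0.140 and 0.140 RPKM in shtRF. The control libraries spanned those of shtRF, and the estimate was near 0 (log2 fold change -0.0018, 95% interval -0.363 to 0.359, adjusted p = 0.996), so a change within that interval in either direction was not detectable at this depth.

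Genes of peptide transport and loading moved in both directions, with 2 of 4 higher and 1 lower. TAP1, the first subunit of the peptide transporter, had 3.05, 3.15 and 3.21 RPKM in control and 2.43, 2.16 and 2.54 RPKM in shtRF (1.32-fold lower, log2 fold change -0.40, SE 0.0844, adjusted p = 5.54e-04). TAP2, its partner, had 4.08, 5.11 and 5.07 RPKM in control and 5.33, 5.28 and 6.01 RPKM in shtRF, which put every shtRF library above every control library by a narrow margin. Its log2 fold change was 0.22 (SE 0.0779, adjusted p = 0.0296), and the call was lost with upper quartile scaling (0.0733), with limma (0.25) and without control replicate 1 (0.231) or shtRF replicate 3 (0.183), over a range of adjusted p from 0.0077 to 0.25 among the 15 alternatives. Exons of TAP2 overlap XXbac-BPG246D15.9 on the same strand over 32.3% of their bases, and the log2 fold change of that gene was 0.22. The ratio of TAP2 to TAP1 RPKM was 1.34, 1.62 and 1.58 in control and 2.2, 2.45 and 2.37 in shtRF. Both subunits are needed for a working transporter.

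TAPBP, or tapasin, which bridges the transporter and the heavy chain, had 2.90, 2.55 and 2.70 RPKM in control and 3.40, 3.23 and 3.09 RPKM in shtRF. It was 1.19-fold higher (log2 fold change 0.25, SE 0.0793, adjusted p = 0.0137), and lost the call with limma (0.122) and without control replicate 2 (0.0818) or shtRF replicate 1 (0.0791), over a range of adjusted p of 0.01 to 0.122. TAPBPL, the tapasin-related peptide editor, had 2.28, 2.03 and 1.94 RPKM in control and 2.27, 2.46 and 2.49 RPKM in shtRF, with a log2 fold change of 0.21 that did not pass the threshold (SE 0.102, adjusted p = 0.111). It shares 11.5% of its exonic bases with neighbours.

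Among the immunoproteasome subunits, 2 of 3 were lower. PSMB8, the inducible chymotrypsin-like subunit, had 12.4, 12.7 and 14.4 RPKM in control and 6.45, 8.10 and 8.18 RPKM in shtRF (1.74-fold lower, log2 fold change -0.80, SE 0.0875, adjusted p = 1.74e-07). Its antisense neighbour PSMB8-AS1 shares 21.2% of the exonic bases of PSMB8 and had a log2 fold change of -0.68. PSMB9, which lies beside TAP1, had 0.876, 0.871 and 0.795 RPKM in control and 0.672, 0.588 and 0.488 RPKM in shtRF. It was 1.45-fold lower (log2 fold change -0.54, SE 0.171, adjusted p = 0.0161), and lost the call without shtRF replicate 3 (0.0853, range 0.00741 to 0.0853). PSMB10, the inducible trypsin-like subunit, which lies outside the MHC on chromosome 16, had 2.22, 2.29 and 2.17 RPKM in control and 2.27, 2.54 and 1.79 RPKM in shtRF, with overlapping groups (log2 fold change -0.01, 95% interval -0.282 to 0.255, adjusted p = 0.953). The overlapping gene CTC-479C5.12 on the same strand shares 34.8% of its exonic bases.

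Each inducible subunit takes the place of 1 constitutive subunit in the particle. PSMB8 amounted to 53.2%, 54.1% and 57.8% of PSMB5 RPKM in control and to 32.7%, 44.2% and 42.3% in shtRF, while PSMB5 itself fell (log2 fold change -0.32, adjusted p = 1.31e-04). PSMB9 amounted to 10.5%, 8.87% and 9.51% of PSMB6 RPKM in control and to 6.53%, 5.8% and 4.88% in shtRF, with a log2 fold change of PSMB6 of 0.20 that did not pass (adjusted p = 0.0638). PSMB10 amounted to 9.7%, 9.45% and 8.7% of PSMB7 RPKM in control and to 11.2%, 12.4% and 9.14% in shtRF, which overlap, and PSMB7 fell (log2 fold change -0.25, adjusted p = 0.00128). The ratio was thus lower in all 3 shtRF libraries for PSMB8 and PSMB9 and not for PSMB10. An exact two-sided permutation test of 3 against 3 libraries cannot go below p = 0.1, so these ratios are given without one. The summed RPKM was 15.6, 15.8 and 17.4 in control and 9.4, 11.2 and 10.5 in shtRF for the 3 inducible subunits, and 54.6, 57.4 and 58.3 against 50.3, 49 and 49 for the 3 constitutive ones.

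**Figure D4:**
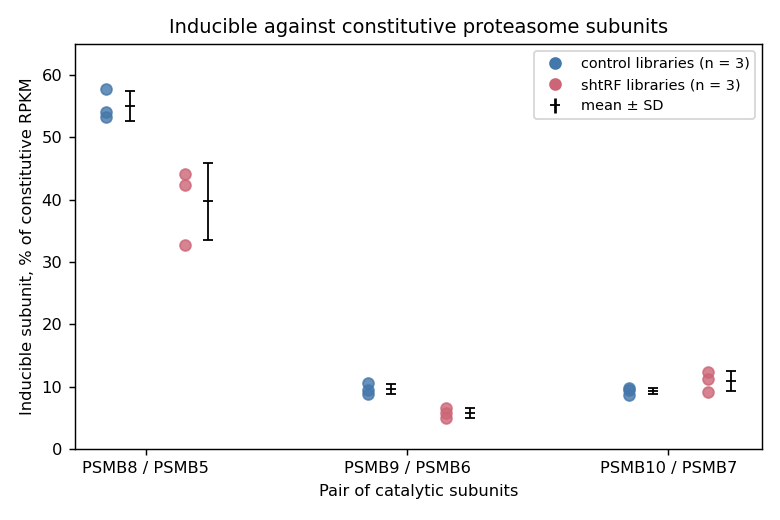
RPKM of each inducible subunit as a percentage of the constitutive subunit it replaces, in each control (blue) and shtRF (red) library, with the mean and SD beside the points. The pair PSMB8 and PSMB5 goes from a mean of 55.1% to 39.7% and the pair PSMB9 and PSMB6 from 9.64% to 5.74%, whereas the points of PSMB10 and PSMB7 overlap.

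The PA28 proteasome activator, which caps the particle and opens it, gave the smallest called change of the list. PSME1 had 193, 193 and 198 RPKM in control and 177, 193 and 192 RPKM in shtRF (log2 fold change -0.06, 95% interval -0.161 to 0.0483, adjusted p = 0.441). PSME2 had 26.5, 25.6 and 28.6 RPKM in control and 24.0, 26.0 and 22.8 RPKM in shtRF, and its call rested on the threshold although the groups overlapped (1.11-fold lower, log2 fold change -0.15, SE 0.0591, adjusted p = 0.0491). The call of PSME2 was lost under DESeq2 (0.0511) and without control replicate 1 (0.0675), control replicate 3 (0.195), shtRF replicate 1 (0.103) or shtRF replicate 3 (0.268), over a range of 0.0179 to 0.268. Neither of the peptidases that trim peptides in the endoplasmic reticulum passed the test. ERAP1 had 2.14, 2.38 and 1.93 RPKM in control and 2.01, 2.06 and 2.16 RPKM in shtRF (log2 fold change -0.05, 95% interval -0.21 to 0.111, adjusted p = 0.677). ERAP2 had 1.47, 1.51 and 1.50 RPKM in control and 1.68, 1.65 and 1.57 RPKM in shtRF, without overlap but below the threshold of the test (log2 fold change 0.13, 95% interval -0.033 to 0.287, adjusted p = 0.237).

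Chaperones of the loading complex split. CALR, the calcium-binding lectin calreticulin that holds the assembled heavy chain, was the most abundant of the 36 genes, with 543, 534 and 563 RPKM in control and 646, 722 and 719 RPKM in shtRF. It was 1.27-fold higher (log2 fold change 0.35, SE 0.0578, adjusted p = 4.62e-05). CANX, its membrane-bound relative calnexin that receives the free heavy chain, had 216, 211 and 225 RPKM in control and 162, 183 and 183 RPKM in shtRF, 1.23-fold lower (log2 fold change -0.30, SE 0.0587, adjusted p = 2.7e-04). Neither pair of groups overlapped. PDIA3, the oxidoreductase that works with both lectins, had 86.0, 93.3 and 88.5 RPKM in control and 91.1, 92.3 and 91.1 RPKM in shtRF, within the control range (log2 fold change 0.04, 95% interval -0.0665 to 0.139, adjusted p = 0.626). Exons of its neighbours, chiefly ELL3, cover 18.9% of its exonic bases.

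NKG2D ligands were higher or did not pass. MICB had 2.08, 2.08 and 2.15 RPKM in control and 3.38, 3.45 and 3.60 RPKM in shtRF, with a wide gap between the groups (1.65-fold higher, log2 fold change 0.72, SE 0.0945, adjusted p = 2.16e-06). ULBP2, a ligand anchored by a lipid, had 0.798, 0.785 and 1.10 RPKM in control and 2.22, 2.05 and 1.65 RPKM in shtRF, from 70, 80 and 118 counts and 210, 190 and 138 counts. It was 2.20-fold higher (log2 fold change 1.14, SE 0.194, adjusted p = 6.33e-05), without overlap. MICA, the neighbour of MICB and the more abundant of the pair, had 12.8, 10.7 and 11.1 RPKM in control and 11.2, 11.2 and 10.7 RPKM in shtRF (log2 fold change -0.07, 95% interval -0.203 to 0.0729, adjusted p = 0.505). ULBP3 had 40, 26 and 40 counts in control and 37, 26 and 48 counts in shtRF (log2 fold change 0.20, 95% interval -0.53 to 0.932, adjusted p = 0.714).

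Set side by side, the 3 branches named in the comparison read as follows. Of the 5 class I heavy chains and B2M, 5 were lower and 1 was not called, with a median log2 fold change of -0.49. That median lies between the values of HLA-C (-0.47) and HLA-G (-0.51), and HLA-G had too few counts to tell a change from none. Of the 10 class II chains and accessory genes, 4 passed the filter, of which HLA-DQB1 was higher, HLA-DMB was lower and HLA-DMA was not called. HLA-DRB1, the fourth, passed only through the group where it is high and is not counted here. Of the 3 immunoproteasome subunits, 2 were lower and 1 was not called, with a median of -0.54, and with the activator 3 of 5 were lower. That median is the value of PSMB9, and the activator gene counted is PSME2, whose groups overlapped (adjusted p = 0.0491). The calls of PSMB9, PSME2 and HLA-DMB were each lost under at least 1 alternative. Among all tested genes, 18.9% were lower and 20.6% were higher, and the counts of such small branches describe their genes only. The class I heavy chains outweighed the class II chains in summed RPKM by 235-fold to 379-fold in shtRF. The difference in change between the branches was not tested.

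Position on chromosome 6 was also described, since 21 of the 36 genes lie in the stretch chr6:29722775-33314387. Of the 16 tested genes of the list in this stretch, 8 were lower and 5 higher (81.2% called). The 5 higher and the 81.2% include HLA-DRB1, which passed the filter on low counts only through the shtRF libraries. That share is therefore not set against the shares below as a result, and no difference between them was tested. Of the 14 tested genes of the list elsewhere, 4 were lower and 2 higher (42.9% called). The 143 other tested genes of the same stretch had 34 lower and 28 higher (43.4% called), against 39.5% of all tested genes in either direction. Neighbours within the stretch thus ran both ways, as HLA-B and MICB or TAP1 and TAP2 did.

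The further lists of the pathway held 34 genes, of which 32 were tested, 10 were higher (31.2%) and 7 lower (21.9%). Among all tested genes, 20.6% were higher and 18.9% were lower, so the share of lower genes lay near that of all genes. The single lists, here and in the next paragraph, hold at most 7 genes each, and their counts describe those genes only. On the route from interferon-gamma, 3 of 7 genes were higher. IRF1, an interferon-induced transcription factor that acts on NLRC5 and CIITA, had 0.804, 0.861 and 0.970 RPKM in control and 0.902, 0.934 and 1.10 RPKM in shtRF, overlapping (log2 fold change 0.15, adjusted p = 0.297). The kinase JAK2 (log2 fold change 0.46, adjusted p = 6.6e-04) and IRF2 (0.21, adjusted p = 0.0423) were higher, the latter with overlapping groups. Within the promoter complex, 2 of 7 genes were lower and none higher. These were NFYB (-0.21, adjusted p = 0.00541) and CREB1 (-0.33, adjusted p = 1.3e-04), whereas RFX5, the DNA-binding RFX subunit, had a log2 fold change of -0.03 (adjusted p = 0.697).

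Other lists held genes that rose. Among the class II endosomal enzymes 3 of 4 tested were higher, led by IFI30, the thiol reductase (log2 fold change 0.42, adjusted p = 3.11e-05, with 40.2% of its exonic bases shared), and CTSL (0.37, adjusted p = 0.00125). CTSS, the protease that trims the invariant chain in professional antigen-presenting cells, had too few counts to be tested. Of the class I-like genes outside the list, AZGP1, a secreted class I-like protein made by apocrine cells, went from 242, 225 and 261 RPKM in control to 464, 450 and 454 RPKM in shtRF (log2 fold change 0.91, SE 0.0587, adjusted p = 4.55e-11). MR1, which presents vitamin B metabolites, was higher (0.55, adjusted p = 5.16e-06), and HFE, the iron regulator, was lower (-0.25, adjusted p = 0.0144). In the class I quality control list, the export receptor BCAP31 was higher (0.35, adjusted p = 1.87e-05) and the peptidase TPP2 lower (-0.47, adjusted p = 4.94e-05), and 3 of 5 were not called. Of the constitutive proteasome list 2 of 5 were lower and 1 was higher, namely the assembly factor POMP (0.34, adjusted p = 1.54e-04).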

How the data were processed

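The mRNA of 6 MDA-MB-453 libraries, 3 control and 3 shtRF by their titles, was sequenced as read pairs from a strand-marking kit. The authors deposited raw read counts per gene, with exon coordinates on GRCh38 and exonic lengths. Per the submitters' processing notes, Trimmomatic 0.36, featureCounts of Subread 1.5.1 and edgeR 3.12.1 were used, and the aligner and the strand setting of the counting are not given in the sources used here. Reads of overlapping genes cannot then be told apart, and tested genes that share at least 10% of their exonic bases with another gene are pointed out. The authors also deposited RPKM values; the part used here held 4997 complete rows with 1 of the 36 genes, and for 4991 of them all values equalled the count divided by length and library total (within 1e-06), so RPKM was recomputed from the counts with TMM-scaled totals.

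Counts were tested with edgeR 4.0.16 in R 4.3.3, using filterByExpr (minimum count 10), TMM factors (0.961 to 1.03), the quasi-likelihood test with group as the only term and Benjamini-Hochberg adjustment over 19628 genes, with a threshold of 0.05. In data simulated for this comparison with 200 genes changed 2-fold, 193 were recovered among 203 calls (19532 genes tested). The changed genes were drawn from those with a mean of at least 1 CPM, so recovery of smaller changes or rarer genes was not measured. In the real data a far larger share of tested genes was called, 39.5%. DESeq2 1.42.0, limma 3.58.1 on log2(RPKM + 1), other scalings, filters, a replicate block and the omission of each library were alternatives. Halved counts were added after the data were seen. Genes with a mean of at least 1 CPM are given per library, other listed genes by counts, and of the further pathway lists up to 2 called genes with the largest rise and fall, beside PSMB5, PSMB6, PSMB7, IRF1 and RFX5; some genes under this rule are not reported here. The genes, lists and tests were chosen with earlier results of these data known. Libraries of 1 group differed by more than counting noise (chi-square per degree of freedom 6.19 to 19.1), so none was taken as a copy of another. All 6 were analysed as separate samples, although that spread does not show that they were separate transductions. No set test was run.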

Additional observations from a re-analysis of the deposited data

How the results depend on the processing

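Of the 446 values of the 30 tested genes under 15 alternatives, 421 had the same sign and the same call, 16 lost the call and 9 changed sign. The calls of HLA-DMB, TAP2, TAPBP, PSMB9 and PSME2 were the ones lost, at least once each. The sign changes were in genes without a call: CIITA at 0.0156 with a replicate block, PDIA3 at -0.0155 under limma, and, over the omissions of 1 library, CIITA between -0.172 and 0.127, PSMB10 between -0.126 and 0.115, ERAP1 between -0.121 and 0.0226, MICA between -0.124 and 0.00494 and ULBP3 between -0.095 and 0.42. The number of genes higher was 6 to 7 and the number lower 10 to 12 when 1 library was left out. Limma on log2(RPKM + 1), a scale that compresses low genes, moved the medians of class II chains to 0.365, class II accessory genes to -0.17, transactivators to -0.0916, transport and loading to 0.126, the immunoproteasome to -0.246 and NKG2D ligands to 0.269, and turned those of trimming to -0.0113 and chaperones to -0.0155. The class I heavy chain median was -0.824 when each library had to hold 10 counts or more and -0.822 with halved counts, both of which drop HLA-G and HLA-DRB1, and the class II chain median was then 1.82 and 1.8; with no filter, which tests all 36 genes, it was 1.6. The class II chain medians that include HLA-DRB1 support no direction, since that gene passed the main filter only through shtRF. Without 1 library at a time, the medians ran from -0.714 to -0.45 for class I heavy chains, 1.9 to 2.25 for class II chains, -0.621 to -0.147 for class II accessory genes (lowest in size without shtRF replicate 1), -0.565 to -0.419 for transactivators, 0.174 to 0.225 for transport and loading, -0.658 to -0.423 for the immunoproteasome, -0.138 to -0.0732 for the activator, 0.00522 to 0.0751 for trimming, 0.00322 to 0.061 for chaperones and 0.33 to 0.576 for NKG2D ligands. Same-numbered libraries hardly deviated together (correlations 0.059, 0.018 and 0.017), so they share only a number; the replicate block left 7 genes higher and 12 lower. No scaling moved the median of all genes by 0.1 (upper quartile, -0.0388). Counts limit the class II genes, HLA-G and ULBP3 most. The range of the class I heavy chain median without 1 library, -0.714 to -0.45, had a value of HLA-G at each end. HLA-G had 7 to 15 counts per library, so that range follows a gene with too few counts to tell a change.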
